A study of Mus musculus with 6 samples.

Results

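The genes examined here encode STAR and the proteins with which it is thought to work at the mitochondrial surface. They were chosen by symbol as Star, Tspo, Vdac1, Vdac2, Vdac3, Acbd3, Dbi, Atad3a, Ywhae and Ywhag, and all 10 were found among the 14774 genes of the count table. RNA was sequenced in 3 libraries, numbered here as in the labels, for each of 2 lines grown without treatment: MA-10, a tumor line derived from mouse Leydig cells and wild type for Star, and STARKO1, its Star knockout. STARKO1 is 1 clone of MA-10 cells, expanded from a sorted cell after CRISPR/Cas9 targeting of exon 2 of Star, so a difference between the lines cannot be told apart from a difference between this clone and its parents. The labels do not say whether the libraries of a line came from separate cultures, and the p values below measure only the spread between these libraries.

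Steroid synthesis in Leydig cells begins when cholesterol reaches the inner mitochondrial membrane, where CYP11A1 converts it to pregnenolone. STAR, made in the cytosol, starts this transfer at the outer membrane. TSPO, a cholesterol-binding protein of that membrane, and the VDAC channels beside it are held to form the core of an assembly called the transduceosome. ACBD3 brings the regulatory part of protein kinase A to TSPO, and DBI is an acyl-CoA binding protein and the natural ligand of TSPO. ATAD3A spans the inner membrane and touches the outer, and the 14-3-3 proteins made from Ywhae and Ywhag are held to act as adaptors in this assembly. Whether the RNA of these partners differs in cells without STAR is the question that the comparison of MA-10 with STARKO1 cells addresses here.

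Of the 10 genes, Star alone differed between the cell lines at an adjusted p under 0.05 in edgeR's quasi-likelihood test, and it was lower in STARKO1 cells. Over all 11939 genes tested, 9.04% passed the same threshold in either direction, 4.3% with a higher and 4.74% with a lower level in the knockout line. Before adjustment, 4 of the 10 genes had p under 0.05, namely Star, Acbd3, Dbi and Ywhag, against 37.6% of all genes tested. Tspo, Vdac1, Vdac2 and Atad3a had the log2 fold changes nearest to 0, between -0.18 and 0.14. The libraries of the lines did not overlap for 3 genes, Star, Acbd3 and Ywhag, and this was so for 42.5% of all genes tested, 21.5% higher and 21.0% lower in STARKO1 cells. Over the 10 genes the median log2 fold change was -0.39, and it was -0.05 over all genes tested. Where libraries were scaled by their size alone, the median of all genes shifted by 0.43 and that of the 10 genes was 0.13, and without MA-10 replicate 2 that of the 10 genes was -0.17. Without MA-10 replicate 1, which stood apart from the other MA-10 libraries, 6 of the 10 genes passed the threshold, 1 higher and 5 lower in STARKO1 cells, but so did 65.7% of all genes tested, 34.0% higher and 31.7% lower.

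The libraries held between 14114351 and 19530062 counts, and the 10 genes together took 0.219% to 0.312% of the counts in MA-10 cells and 0.241% to 0.245% in STARKO1 cells. Levels are given as CPM, the count per 1000000 counts of the TMM-scaled library size. Among the 8220 tested genes whose mean reached 10 CPM, the median coefficient of variation was 27.6% over the MA-10 libraries and 5.07% over the STARKO1 libraries. All 10 Leydig markers examined were listed, although Cyp17a1 and Lhcgr had only 3.58 and 3.83 CPM on average in MA-10 cells. The summed level of the Leydig markers was 1954 to 2645 CPM in MA-10 and 1547 to 1622 CPM in STARKO1 libraries, and 6 of the 10 log2 fold changes were negative. Hsd3b1, Inha and Star passed the test, all lower in STARKO1 cells, where 4.74% of all genes were called lower. Inha passed in only 5 of 14 alternative fits (adjusted p from 0.00142 to 0.257, with edgeR or DESeq2). Cyp17a1 (1.27), Nr5a1 (0.42), Insl3 (0.28) and Gata4 (0.22) had positive log2 fold changes that did not pass. Those of Cyp11a1 (-0.93), Hsd3b6 (-0.93) and Lhcgr (-0.58) were negative and did not pass either. For 8 of the 10 markers, all but Insl3 and Gata4, the lines did not overlap, against 42.5% of all genes tested. Of the markers of other cell types, 3 of 6 for macrophages, 2 of 6 for Sertoli cells, 1 of 6 for germ cells, 2 of 6 for fibroblasts and peritubular cells and 2 of 5 for endothelium were listed, and Ptprc, Sox9, Amh, Dazl, Col1a1 and Kdr had no row in a table whose smallest gene total was 10 counts. The listed ones summed to 7.31 to 10.02 CPM in MA-10 and 6.37 to 8.603 CPM in STARKO1 libraries for macrophages, 333 to 524 and 565 to 589 CPM for Sertoli cells, nearly all of it Rhox5, and 2.20 to 3.55 and 1.91 to 2.83 CPM for germ cells. The sums were 3.12 to 7.66 and 0.337 to 0.430 CPM for fibroblasts, and 26.4 to 41.5 and 118 to 124 CPM for endothelium, nearly all of it Cdh5. The fibroblast marker Pdgfra was lower in STARKO1 cells, at 0 to 2 counts in each library (log2 fold change -6.42, adjusted p = 0.00595 in edgeR's test). It passed in 12 of 13 alternative fits (adjusted p = 0.0535 without STARKO1 replicate 3 in edgeR's test). The endothelial marker Cdh5 was higher in STARKO1 cells (1.84, adjusted p = 0.00596 in edgeR's test). Pecam1, at 0.17 to 0.86 CPM over the libraries, did not pass (0.70, adjusted p = 0.336 in edgeR's test). The part of these markers in the results below was not tested.

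Star, the targeted gene (chromosome 8 of GRCm38, 25806555 to 25815983, plus strand), had 60.9, 109 and 61.4 CPM in MA-10 libraries 1, 2 and 3. In STARKO1 libraries 1, 2 and 3 it had 2.06, 2.71 and 2.02 CPM. The lowest MA-10 library was far above the highest STARKO1 library, and no other gene of the set separated the lines this widely. Star was 34.0-fold lower in STARKO1 cells, a log2 fold change of -5.09 with a 95% confidence interval from -5.87 to -4.30 (adjusted p = 0.00121 in edgeR's quasi-likelihood test). Star passed the threshold in all 14 alternative fits. Its RNA remained countable in STARKO1 cells, at 36 to 48 counts in each library, where 3 counts would correspond to at most 0.177 CPM. In bulk RNA, fewer cells with a transcript and less of it in each cell cannot be told apart.

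**Figure D1:**
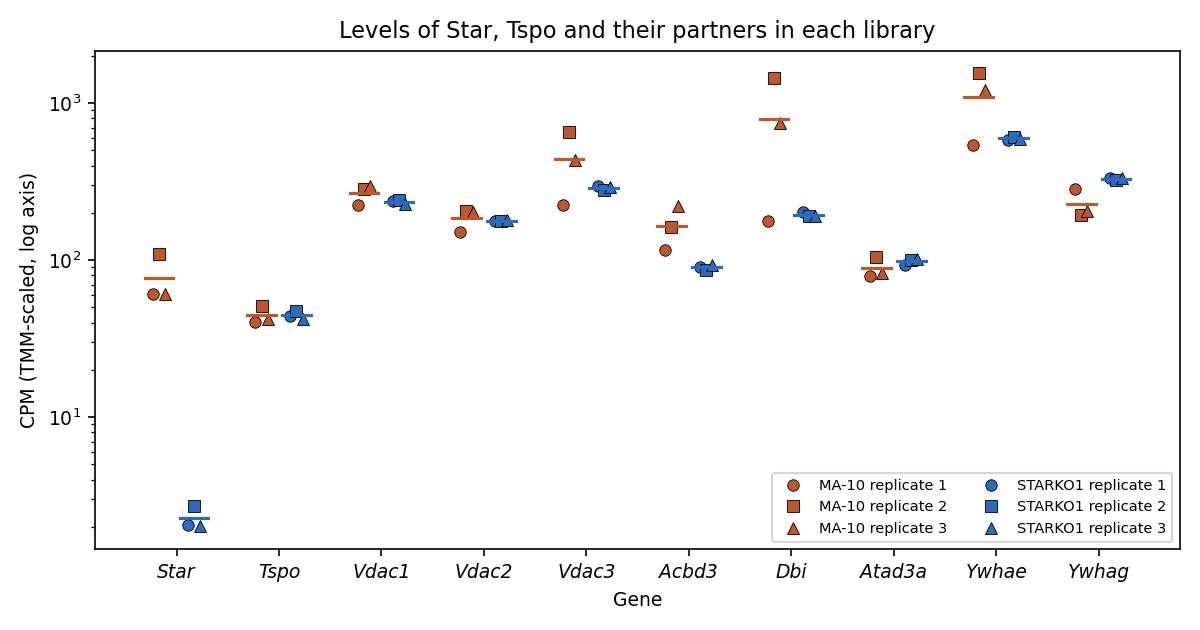
CPM of the 10 genes on a log axis, with 1 point for each library, MA-10 in orange and STARKO1 in blue, and a line at the mean of each cell line. Star is at 60.9 to 109 CPM in MA-10 and 2.02 to 2.71 CPM in STARKO1 libraries, whereas Dbi spreads from 177 to 1458 CPM within MA-10 cells alone.

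Tspo (chromosome 15, 83563592 to 83574204, plus strand) encodes the translocator protein, which binds cholesterol and a range of drug ligands. It had 40.2, 50.8 and 42.4 CPM in MA-10 libraries 1, 2 and 3, and 44.0, 47.5 and 42.1 CPM in STARKO1 libraries 1, 2 and 3. The ranges overlapped, and the means of the lines were almost equal, at 44.5 ± 5.60 CPM and 44.5 ± 2.72 CPM (SD, n = 3). Tspo had a log2 fold change of 0.00 with a 95% confidence interval from -0.38 to 0.38 (adjusted p = 0.995 in edgeR's quasi-likelihood test). A change beyond 1.30-fold in either direction lay outside the interval of this fit, which depends on the scaling. With scaling by library size alone the log2 fold change was 0.47 (95% confidence interval -0.04 to 0.98), under a shift of the median of all genes by 0.43. Tspo has a short transcript of 837 bases, and with offsets for gene length its log2 fold change was 0.47 (95% confidence interval 0.03 to 0.91, adjusted p = 0.115), in a fit where Star alone of the 10 genes and 12.4% of all genes passed. An exon of Tspo overlaps one of Mcat on the opposite strand, and how the counting program treated strand is not given in the sources used here.

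For each Tspo count there were 1.52, 2.15 and 1.45 Star counts in the MA-10 libraries. There were 0.0469, 0.0571 and 0.0481 in the STARKO1 libraries. This ratio does not depend on how the libraries are scaled, and it was chosen after the values were seen.

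The VDAC genes encode the voltage-dependent anion channels, the main pores of the outer mitochondrial membrane. Vdac1 (chromosome 11, 52360860 to 52389398, plus strand) had 225, 283 and 296 CPM in the MA-10 libraries and 237, 243 and 229 CPM in the STARKO1 libraries. Vdac2 (chromosome 14, 21825238 to 21845880, plus strand) had 152, 205 and 202 CPM in MA-10 and 177, 179 and 181 CPM in STARKO1 libraries. For both genes the STARKO1 libraries lay inside the range of the MA-10 libraries. Vdac1 had a log2 fold change of -0.18 (95% confidence interval -0.61 to 0.25, adjusted p = 0.475 in edgeR's quasi-likelihood test), and its sign turned with scaling by library size alone. That of Vdac2 was -0.06 (95% confidence interval -0.49 to 0.37, adjusted p = 0.827), and its sign turned in 7 of 14 alternative fits. A small exon overlap joins Vdac2 and Comtd1, which lie on opposite strands.

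Vdac3 (chromosome 8, 22577075 to 22593814, minus strand) was less even. It had 225, 655 and 437 CPM in MA-10 libraries 1, 2 and 3 and 297, 280 and 292 CPM in the STARKO1 libraries. MA-10 replicate 1 was below all STARKO1 libraries and the other MA-10 libraries were above them. Vdac3 had a log2 fold change of -0.60 with a 95% confidence interval from -1.48 to 0.28 (adjusted p = 0.266 in edgeR's quasi-likelihood test). Without MA-10 replicate 1, Vdac3 passed the threshold, as did 65.7% of all genes tested, with a log2 fold change of -0.82 and an adjusted p of 0.00235 in edgeR's test. Without MA-10 replicate 2 it was -0.19 (adjusted p = 0.675), and with libraries scaled by their size alone -0.02 (adjusted p = 0.952). The pseudogene Vdac3-ps1, listed with 41 to 380 counts per library, resembles Vdac3 in sequence, and the values of Vdac3 were not whole in any of the 6 libraries, so that reads may have been divided between similar genes by the counting program.

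Per kilobase of the longest coding transcript, Vdac3 was the most abundant VDAC gene in every library. It took 45.5%, 65.3% and 55.1% of the VDAC level per length in the MA-10 libraries and 50.1%, 48.2% and 49.9% in the STARKO1 libraries. Vdac1 took 32.1%, 19.9% and 26.3% in MA-10 and 28.2%, 29.4% and 27.6% in STARKO1 libraries. Vdac2 took the smallest share in every library, 14.9% to 22.4% in MA-10 and 21.7% to 22.5% in STARKO1 cells. The shares of all 3 genes overlapped between the lines, and the exact permutation test (two-sided, n = 3 against 3) gave a p of 0.3 or more for each. A test of 3 against 3 libraries cannot give a p below 0.1. 

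Acbd3 and Dbi both carry an acyl-CoA binding domain. Acbd3 (chromosome 1, 180726043 to 180754205, plus strand), the scaffold that links TSPO to protein kinase A, had 116, 162 and 220 CPM in the MA-10 libraries and 91.0, 86.7 and 92.6 CPM in the STARKO1 libraries. All STARKO1 libraries were below all MA-10 libraries. Acbd3 had a log2 fold change of -0.88 with a 95% confidence interval from -1.47 to -0.30, which did not pass the threshold (adjusted p = 0.0643 in edgeR's quasi-likelihood test). It passed with DESeq2 (adjusted p = 0.0173), where 23.6% of all genes did. Acbd3 also passed without MA-10 replicate 1, where 65.7% of all genes did. There its log2 fold change was -1.002 and its adjusted p 0.000643 in edgeR's test. With scaling by library size alone it was -0.39, under a shift of the median of all genes by 0.43. Every value of Acbd3 in the table was whole.

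Dbi (chromosome 1, 120113280 to 120121079, minus strand) was the least even gene of the set. It had 177, 1458 and 745 CPM in MA-10 libraries 1, 2 and 3, from 3094, 16813 and 8457 counts. In STARKO1 libraries 1, 2 and 3 it had 202, 191 and 191 CPM. MA-10 replicate 1 was thus slightly below the STARKO1 libraries, while the other MA-10 libraries were far above them, and the highest MA-10 library was 8.23-fold above the lowest. Its log2 fold change was -2.03, the furthest from 0 after Star, with a 95% confidence interval from -3.61 to -0.44, and it did not pass the threshold (adjusted p = 0.0838 in edgeR's quasi-likelihood test). Dbi passed with DESeq2 (adjusted p = 0.0101), where 23.6% of all genes did. It also passed without MA-10 replicate 1 (log2 fold change -2.40, adjusted p = 7.21e-05 in edgeR's test), where 65.7% of all genes did. Its log2 fold change was -1.25 without MA-10 replicate 2 (adjusted p = 0.202 in edgeR's test).

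Because DBI is a ligand of TSPO, the counts of both genes were also set against each other. For each Tspo count there were 4.41, 28.7 and 17.5 Dbi counts in the MA-10 libraries and 4.59, 4.02 and 4.53 in the STARKO1 libraries. MA-10 replicate 1 was inside the range of the STARKO1 libraries. This ratio, too, was chosen after the values were seen.

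**Figure D2:**
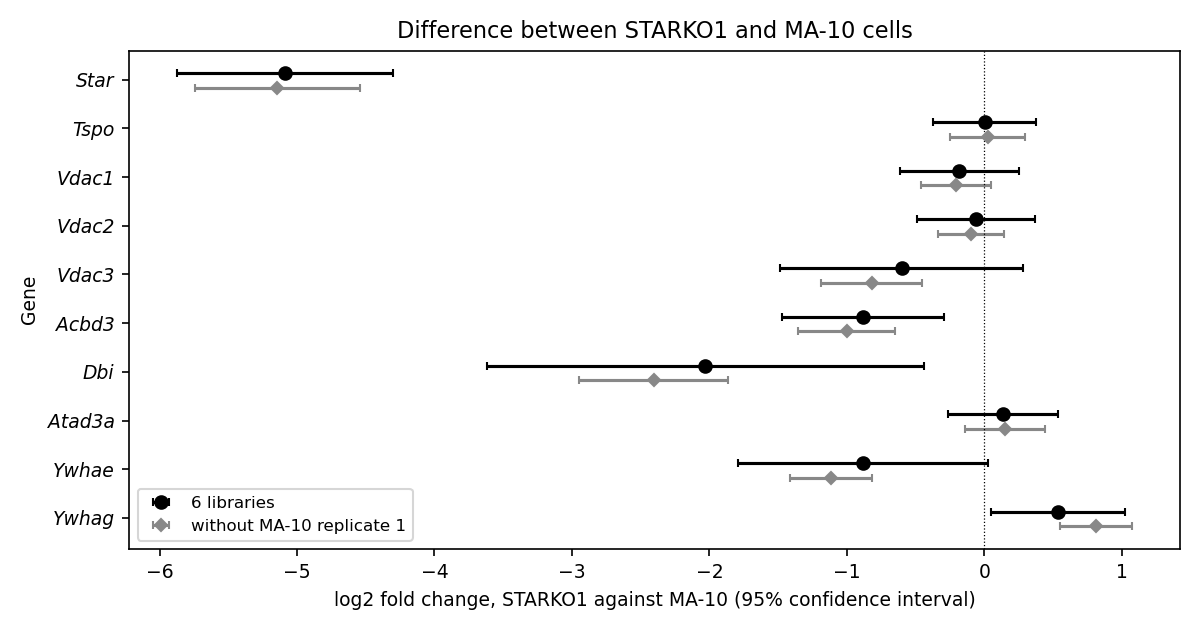
Log2 fold change of each gene, STARKO1 against MA-10, for all 6 libraries (black circles) and without MA-10 replicate 1 (grey diamonds). Bars are 95% confidence intervals calculated from the F statistic of edgeR's test. The interval of Star ends at -4.30, those of Tspo, Vdac1, Vdac2 and Atad3a include 0 in both fits, and that of Dbi narrows from -3.61 to -0.44 to -2.95 to -1.86 without that library. Vdac1 and Vdac2 change sign with scaling by library size alone.

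Atad3a (chromosome 4, 155740641 to 155761094, minus strand) encodes the ATPase of the inner membrane that contacts the outer one. It had 79.7, 106 and 83.1 CPM in the MA-10 libraries and 93.3, 101 and 101 CPM in the STARKO1 libraries. The STARKO1 libraries lay within the range of the MA-10 libraries. Atad3a had a log2 fold change of 0.14 (95% confidence interval -0.27 to 0.54, adjusted p = 0.565 in edgeR's quasi-likelihood test), and it stayed positive and below the threshold in all 14 alternative fits, between 0.09 and 0.61.

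Ywhae and Ywhag encode the epsilon and gamma forms of 14-3-3, adaptors that bind phosphorylated proteins. Ywhae (chromosome 11, 75732869 to 75765846, plus strand) had 542, 1549 and 1211 CPM in the MA-10 libraries and 585, 611 and 596 CPM in the STARKO1 libraries. Ywhag (chromosome 5, 135908409 to 135934617, minus strand) had 282, 193 and 207 CPM in the MA-10 libraries and 332, 326 and 333 CPM in the STARKO1 libraries. The libraries of the lines overlapped for Ywhae, through MA-10 replicate 1, and did not for Ywhag, which was higher in every STARKO1 library.

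Neither gene passed the threshold. Ywhae had a log2 fold change of -0.88 (95% confidence interval -1.79 to 0.03, adjusted p = 0.142 in edgeR's quasi-likelihood test). That of Ywhag was 0.54 (95% confidence interval 0.05 to 1.03, adjusted p = 0.110). Without MA-10 replicate 1, both passed, as did 65.7% of all genes tested. Their log2 fold changes were then -1.12 (adjusted p = 0.000168) and 0.81 (adjusted p = 0.000428) in edgeR's test. Ywhag also passed with DESeq2 (adjusted p = 0.0451), where 23.6% of all genes did. Without MA-10 replicate 2, Ywhae was at -0.56 (adjusted p = 0.324), and with libraries scaled by their size alone Ywhae was at -0.31 and Ywhag at 0.92.

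For Ywhag, whose STARKO1 libraries were all above the MA-10 libraries, the 250 bases before the start in the RefSeq table of GRCm38.p6 are shown. The window is chr5:135934642-135934891 on the minus strand, printed 5′ to 3′ with matches to the searched motifs in capitals.
Ywhag: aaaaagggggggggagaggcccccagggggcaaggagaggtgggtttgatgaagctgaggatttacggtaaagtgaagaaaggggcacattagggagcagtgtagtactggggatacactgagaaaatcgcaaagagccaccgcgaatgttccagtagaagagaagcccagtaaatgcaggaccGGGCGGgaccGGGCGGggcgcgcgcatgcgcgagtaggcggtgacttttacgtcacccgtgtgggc
Each motif was searched on both strands in this and all other windows of this length, 32851 in all, and no match overlapped another in the window shown. The GC box, GGGCGG, was found in 32.7% of all windows, and the Ywhag window holds it 2 times. The CCAAT box was found in 33.8% of them, the TATA box, TATAAA, in 12.4%, the nuclear receptor site, AAGGTCA, in 4.08% and the cAMP response element, TGACGTCA, in 1.55%, and the Ywhag window holds none of these. Start regions were matched for 4 of the 10 genes, and that of Ywhae also holds the GC box 2 times. Ywhag has 16 CpG dinucleotides in its 250 bases.

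The 14-3-3 genes were compared as a family, which also holds Ywhab, Ywhah, Ywhaq, Ywhaz and Sfn. All 7 were tested and 0 passed in edgeR's quasi-likelihood test, while 3 had an unadjusted p under 0.05 (37.6% of all genes did) and DESeq2 called 2, Ywhab and Ywhag (23.6% of all genes). The median log2 fold change was -0.21, but 0.40 with scaling by library size alone, 0.09 with gene length offsets, 0.26 without MA-10 replicate 2 and -0.49 without MA-10 replicate 1. Ywhae was the most abundant form per length in every library, with 36.6%, 42.5% and 42.7% of the family level in the MA-10 libraries and 32.9%, 34.0% and 33.1% in the STARKO1 libraries. Its share was lower in every STARKO1 library than in every MA-10 library, with a mean difference of -7.23 percentage points. The shares of Ywhab, Ywhaq and Sfn did not overlap either, and these were higher in STARKO1 cells, by 2.66, 4.50 and 0.575 percentage points. For these 4 genes the exact permutation test gave p = 0.1, the smallest it can give (two-sided, n = 3 against 3), and 0.25 after Benjamini-Hochberg adjustment over 10 isoforms of both families. The share of Ywhag was 11.4%, 3.16% and 4.35% in the MA-10 libraries and 10.9% to 11.1% in STARKO1 cells, so that MA-10 replicate 1 was above the STARKO1 libraries and the other MA-10 libraries were well below them.

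**Figure D3:**
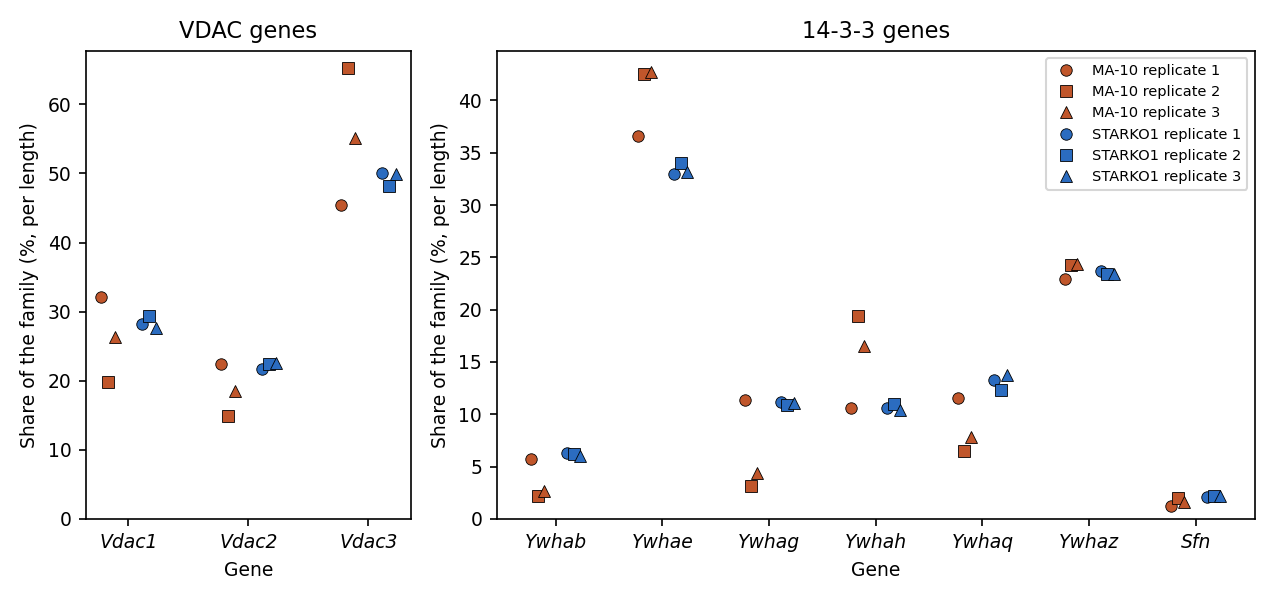
Share of each gene in the summed level of its family, in percent and per length, with 1 point for each library, VDAC genes on the left and 14-3-3 genes on the right. Ywhae takes 36.6% to 42.7% in MA-10 and 32.9% to 34.0% in STARKO1 libraries, and the VDAC shares overlap between the lines.

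For 8 of the 10 genes, all but Star and Atad3a, MA-10 replicate 1 was nearer on the log scale to the STARKO1 mean than to the mean of the other MA-10 libraries, and so were 73.8% of the tested genes with at least 10 CPM. Across the tested genes this difference moved with transcript length. The median log2 difference of MA-10 replicates 2 and 3 from replicate 1 was 0.57 in the shortest of 5 length classes, up to 1516 bases, and -0.36 in the longest, from 4901 bases. Dbi, at 569 bases, had a difference of 2.56 and Vdac3, at 1423 bases, one of 1.25. Ywhag, at 3520 bases, had a difference of -0.50, whereas Acbd3, at 3471 bases, had one of 0.70 against a median of -0.18 in its length class. Star, at 4046 bases in the same class, had 0.43. Ywhae, at 2100 bases, had 1.34 against a class median of 0.16. In that class Vdac1, Vdac2 and Atad3a had 0.36, 0.42 and 0.23. Tspo, at 837 bases, had 0.21 against a class median of 0.57. With offsets for gene length, Dbi had a log2 fold change of -1.48 between the cell lines (adjusted p = 0.0939) and Vdac3 one of -0.23 (adjusted p = 0.518) in edgeR's quasi-likelihood test. Those of Acbd3, Ywhae and Ywhag were -0.95 (adjusted p = 0.0537), -0.75 (adjusted p = 0.143) and 0.49 (adjusted p = 0.0928) in the same test. The 7SL RNA also moved with these libraries, at 1.81% of the counts in MA-10 replicate 1, 14.4% and 6.63% in replicates 2 and 3 and 1.82% to 2.37% in STARKO1 cells, and its part in the members' values was not tested.

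**Figure D4:**
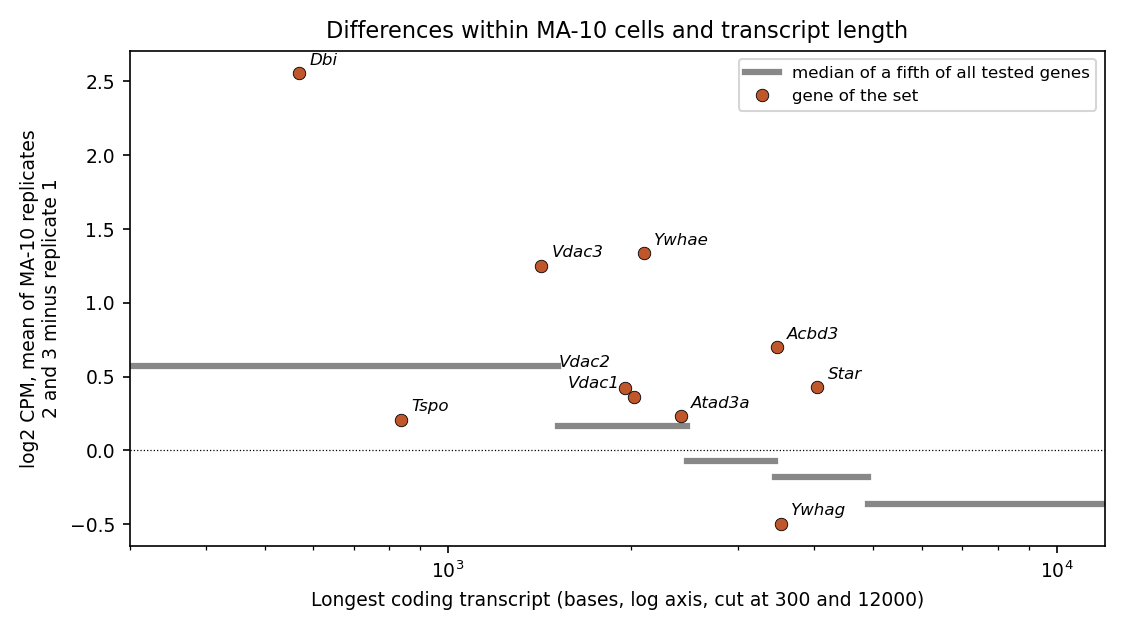
Difference in log2 CPM between the mean of MA-10 replicates 2 and 3 and replicate 1 (vertical axis) against the length of the longest coding transcript in bases (log horizontal axis), with orange points for the 10 genes and grey bars for the median of each of 5 length classes of the tested genes. The bars fall from 0.57 to -0.36, and Dbi at 2.56 lies furthest above its bar.

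Per kilobase of the longest coding transcript, Dbi, Ywhae, Vdac3 and Vdac1 were, in this order, the most abundant of the set in both lines. Star, divided by 4046 bases, was the least. Other transcripts of these genes were not used, so the order holds for this choice of length only. In STARKO1 cells, Dbi had 342 ± 11.5 CPM per kilobase, Ywhae 284 ± 6.01, Vdac3 203 ± 6.22 and Vdac1 117 ± 3.47 (SD, n = 3). Ywhag (93.9 ± 0.986) and Vdac2 (91.5 ± 1.00) followed close together, ahead of Tspo with 53.2 ± 3.25, Atad3a with 40.8 ± 1.84 and Acbd3 with 26.0 ± 0.886. No neighbours in this order overlapped, although the ranges of Ywhag and Vdac2 nearly touched at 92.7 and 92.5. In MA-10 cells Dbi had 1394 ± 1128, Ywhae 524 ± 244 and Vdac3 308 ± 151 CPM per kilobase, and these neighbours overlapped. Star had 19.1 ± 6.88 CPM per kilobase in MA-10 cells, below Tspo with 53.2 ± 6.69, and 0.560 ± 0.0954 in STARKO1 cells.

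The partners were also compared in how they varied over the 6 libraries, by the root mean square difference of their centred log2 CPM. Vdac1 and Vdac2 were the most alike pair, with a difference of 0.077, followed by Tspo and Atad3a with 0.097. Vdac3 and Ywhae differed by 0.165. Star differed from every other member by 1.85 or more, with Dbi the nearest to it. Among 8219 other genes with at least 10 CPM, those nearest to Tspo were H3f3a, Agtrap and Fiz1, which differed from it by 0.030, 0.033 and 0.045. Those nearest to Star were Mreg, Dlk1 and Rora, which differed from it by 0.64, 0.70 and 0.75 and had log2 fold changes of -4.37, -6.40 and -3.61 between the lines.

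Further lists placed the members among related genes. In the acyl-CoA binding family, 6 of 7 genes were tested and 0 passed in edgeR's test, while 6 of 6 log2 fold changes were negative, against 52.9% over all genes, with a median of -0.59. With scaling by library size alone 5 of 6 were negative, against 29.4% over all genes, with a median of -0.11. At an unadjusted p under 0.05 there were 4 of 6 genes, against 37.6% of all genes, and DESeq2 called 4, against 23.6%. Besides Acbd3, the STARKO1 libraries were all below the MA-10 libraries for Acbd6 (log2 fold change -0.49, adjusted p = 0.0712) and Eci2, an enoyl-CoA isomerase (-0.69, adjusted p = 0.0674). This was so for 21.0% of all genes tested. Acbd5, a peroxisomal tether, had a log2 fold change of -0.04.

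Among partners of VDAC and the permeability pore, 11 of 13 genes were tested and 0 passed, against 9.04% of all genes. At an unadjusted p under 0.05 there were 3, against 37.6% of all genes, and DESeq2 called 2, Hk2 and Mcl1, against 23.6%. The median log2 fold change was 0.18, or 0.65 with scaling by library size alone. Hk2, a hexokinase that docks on VDAC, had 84.0 ± 24.6 CPM in MA-10 and 150 ± 14.9 CPM in STARKO1 cells (SD, n = 3). Its log2 fold change was 0.83 (adjusted p = 0.0658 in edgeR's test). Hk2 passed with offsets for gene length, where 12.4% of all genes did. The adenine nucleotide carriers Slc25a4 and Slc25a5 had log2 fold changes of -0.62 (adjusted p = 0.256) and -0.39 (adjusted p = 0.384), while Slc25a31, another carrier of this kind, had 0.44 (adjusted p = 0.122), without overlap. In this list the lines did not overlap for 6 of the 11 tested genes, against 42.5% of all genes.

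The list for cholesterol handling at the inner membrane also holds import receptors of the outer membrane. Of its 11 genes, 11 were tested and 0 passed, against 9.04% of all genes. At an unadjusted p under 0.05 there were 4, against 37.6%, and DESeq2 called 3, Cyp11a1, Fdxr and Phb2, against 23.6%. The lines did not overlap for 5 of the 11, against 42.5% of all genes. The median was -0.06, or 0.48 with scaling by library size alone and 0.09 without MA-10 replicate 2. Cyp11a1, the side-chain cleavage enzyme that receives the cholesterol, had 835 ± 259 CPM in MA-10 and 439 ± 9.95 CPM in STARKO1 cells (SD, n = 3), a log2 fold change of -0.93 (adjusted p = 0.0670), without overlap. Fdxr, which passes electrons to that enzyme by way of the product of Fdx1, had a log2 fold change of 0.79 (adjusted p = 0.0878). That of Fdx1 was -0.11 (adjusted p = 0.706 in edgeR's test), and the import receptors Tomm20 and Tomm22 had 0.01 and 0.06. In the kinase and arachidonate arm, which couples hormone signals to the complex, 11 of 11 genes were tested and 0 passed. At an unadjusted p under 0.05 there were 4, against 37.6% of all genes, and DESeq2 called 1, Mapk3, against 23.6%. The median was -0.17, or 0.28 with scaling by library size alone. Mapk3 had a log2 fold change of -0.60 (adjusted p = 0.0674) and Prkar1a, the kinase subunit that ACBD3 holds, one of -0.60 (adjusted p = 0.259).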

How the data were processed

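Gene counts of 3 MA-10 and 3 STARKO1 libraries, prepared from total RNA with a kit that marks strand, were compared. The authors deposited estimated counts per gene, neither scaled for library size nor for gene length, with replicates kept apart. The submitters' processing notes name STAR 2.6.1d, Partek and mm10, without roles or settings. Counts were not whole in at least 1 library for 8006 of 14774 genes, so reads of similar genes may have been divided between them, which cannot be undone here. For 14677 genes a GENCODE entry of GRCm38 was found by symbol and chromosome, and 14634 had the same start.

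Counts were rounded, filtered with filterByExpr, scaled by TMM and tested with the quasi-likelihood test of edgeR 4.0.16 in R 4.3.3, with Benjamini-Hochberg adjustment over all genes tested and a threshold of 0.05. Log2 CPM used a prior count of 2. Gene length was that of the longest coding transcript. Family shares were compared with exact permutation tests in scipy 1.17.1. The fits were tested on simulated data. These were drawn with the same spread in both lines, unlike the real libraries, so this test does not cover their unequal spread.

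Alternatives were DESeq2 1.42.0, other scalings and filters, a replicate block, gene length offsets and leaving out each library. The genes, lists and tests were chosen with earlier results of these data known. Named are all 10 genes, genes of the lists, and the 3 genes nearest to Star and to Tspo among those with at least 10 CPM. Lipid and steroid measurements were not analysed here. Some sequence is not reported here.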

Additional observations from a re-analysis of the deposited data

How the results depend on the processing

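Star passed the threshold in all 14 alternatives and Tspo, Vdac1, Vdac2 and Atad3a in none. The count of differentially expressed genes, 1079, was 330 with scaling by library size alone (63.6% of them higher in STARKO1 cells, against 47.5% with TMM), 3349 with DESeq2, 695 with at least 10 counts in every library, and 89 to 7990 when 1 library was left out, the highest without MA-10 replicate 1 and the lowest without STARKO1 replicate 1. It was 511 without MA-10 replicate 2, 181 without MA-10 replicate 3, and 135 and 93 without STARKO1 replicates 2 and 3. The median over all genes moved by 0.43 with library size alone and by 0.15 with upper quartile scaling. Of the 10 genes 4 passed with DESeq2, where 23.6% of all genes did, and 1 to 6 when 1 library was left out. DESeq2 called 2 genes of the 14-3-3 family, 4 of the acyl-CoA binding family, 2 of the VDAC partners, 3 of the inner membrane list and 1 of the kinase arm. Gene length offsets called 1 of the VDAC partners, and 12.4% of all genes. When 1 library was left out, 0 to 6, 0 to 4, 0 to 9, 0 to 5 and 0 to 5 genes of these lists were called. The highest counts, for the lists and for the 10 genes, came each time without MA-10 replicate 1, where 65.7% of all genes were called. Without MA-10 replicate 2 the kinase arm had 1 call, Acot2, against 4.19% of all genes. Signs turned for Tspo without MA-10 replicate 3 (-0.033) and without STARKO1 replicate 2 (-0.041), for Vdac1 with library size alone (0.29), and for Vdac2 with upper quartile scaling (0.10), library size alone (0.42), no filter (0.0032), gene length offsets (0.080) and without MA-10 replicate 2 (0.014), MA-10 replicate 3 (0.0017) or STARKO1 replicate 1 (0.036). Leaving out 1 library gave -0.041 to 0.107 for Tspo and -0.097 to 0.036 for Vdac2. For Tspo, library size alone gave 0.469 and gene length offsets gave 0.466. The difference in the VDAC share of Vdac1 turned to -0.816 percentage points without MA-10 replicate 2, from 2.29, within a range of -0.816 to 5.29 when 1 library was left out. The cause of these changes was not tested.

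Libraries of the lines share a replicate number, and the labels do not say whether it stands for a pairing. Deviations of same-numbered libraries from the mean of their line correlated at -0.017, 0.045 and 0.020 across genes. These values cannot exclude a pairing, because the large differences between the MA-10 libraries could hide it. With the number as a replicate block, 234 genes (1.96%) were called, and of the 10 genes Star alone (log2 fold change -5.04, adjusted p = 0.00593), with adjusted p values of 0.119 for Acbd3, 0.158 for Dbi and 0.200 for Ywhag in edgeR's test. The block changed no call of the 10 genes or of the lists of related genes, but among the markers Inha was lost (adjusted p = 0.0986).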
